A study of Mus musculus with 18 samples.

Results

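Of 20358 genes on the arrays, 10 imprinted genes are described here across fat, liver and skeletal muscle, in MKR and in WT mice. The genes are Peg10, Sgce, Mest, Peg3, Ndn, Dlk1 and Plagl1, which are transcribed from the paternal allele (7 genes), and Zim1, H19 and Cdkn1c, which are transcribed from the maternal allele (3 genes). They were listed by name, and they were selected on earlier results of these data, among them the low Peg10 values in MKR fat. The members are all the probe sets annotated to exactly 1 of these symbols, and the value of a gene is the mean of its probe sets. All 10 genes were measured, with 17 probe sets for Peg3, 15 each for Sgce and Plagl1, 13 for Mest, 7 for H19, 6 each for Dlk1 and Cdkn1c, 5 for Zim1, 2 for Peg10 and 1 for Ndn.

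The samples are 18 arrays, 1 for each of 3 tissues of 6 male mice, which were 10 weeks old and all on the FVB/N background. There are 3 MKR mice and 3 WT mice, which gives 6 groups of 3 arrays. MKR mice carry a mutant IGF-I receptor in skeletal muscle. The transgene is driven by a muscle creatine kinase promoter and its receptor blocks signalling by the normal one, so liver and fat carry the unaltered receptor while the whole animal becomes insulin resistant and diabetic. Each array used amplified RNA of a single mouse and tissue, and the number of arrays limits the precision.

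Imprinted genes are transcribed mainly from the allele inherited from 1 parent, and the parental alleles are told apart by DNA methylation that was set in the germ line. Many of them act on fetal growth, on placental development and on the differentiation of mesodermal tissues such as fat and muscle, and most are turned down after birth. The insulin-like growth factor Igf2 is itself imprinted and lies beside H19. The arrays measure total RNA of a gene and do not separate the parental alleles.

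Values are log2 intensities, so that a difference of 1 is a 2-fold difference. The marker genes of each tissue bore out the labels. The mean of 8 adipocyte markers was 9.36 to 10.79 in fat and at most 6.76 elsewhere, that of 8 hepatocyte markers was 11.66 to 11.95 in liver and at most 6.46 elsewhere, and that of 8 muscle fibre markers was 11.71 to 11.95 in muscle and at most 5.43 elsewhere. Igf1r, the gene of the mutated receptor, was 8.53, 8.32 and 8.51 in MKR muscle against 6.75, 6.14 and 6.42 in WT muscle. In fat it was 9.07, 6.10 and 6.19 in MKR mice and 6.97, 6.96 and 6.07 in WT mice. MKR fat replicate 1 was thus above every MKR muscle array for Igf1r, and the cause was not tested. The fat array of MKR replicate 1 stood apart. The mean of 19 measured epididymis markers, of 20 listed, was 9.83 there and 4.77 to 5.02 in the other 5 fat arrays, with 17 of the 19 genes at their highest there, and 7 of 8 adipocyte markers were at their lowest there. Differences between MKR and WT fat are given with and without this array.

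The first question is where these genes are expressed in healthy adult mice. With limma at an adjusted p under 0.05, 8 of the 10 genes were higher in WT fat than in WT liver and 0 were lower, where 19% of all genes were higher and 16.5% lower. In WT fat against WT muscle 6 were higher and 2 lower, where 19.5% of all genes were higher and 18.3% lower. Both counts of genes higher in fat include Peg10, whose WT fat values were part of the comparison that helped to choose the list. In WT muscle against WT liver 5 were higher and 0 lower, where 21.5% of all genes were higher and 18.9% lower. The median difference of the 10 genes was 1.66 for fat minus liver, 0.71 for fat minus muscle and 0.85 for muscle minus liver, against medians of -0.01, 0.02 and -0.01 over all genes.

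**Figure D1:**
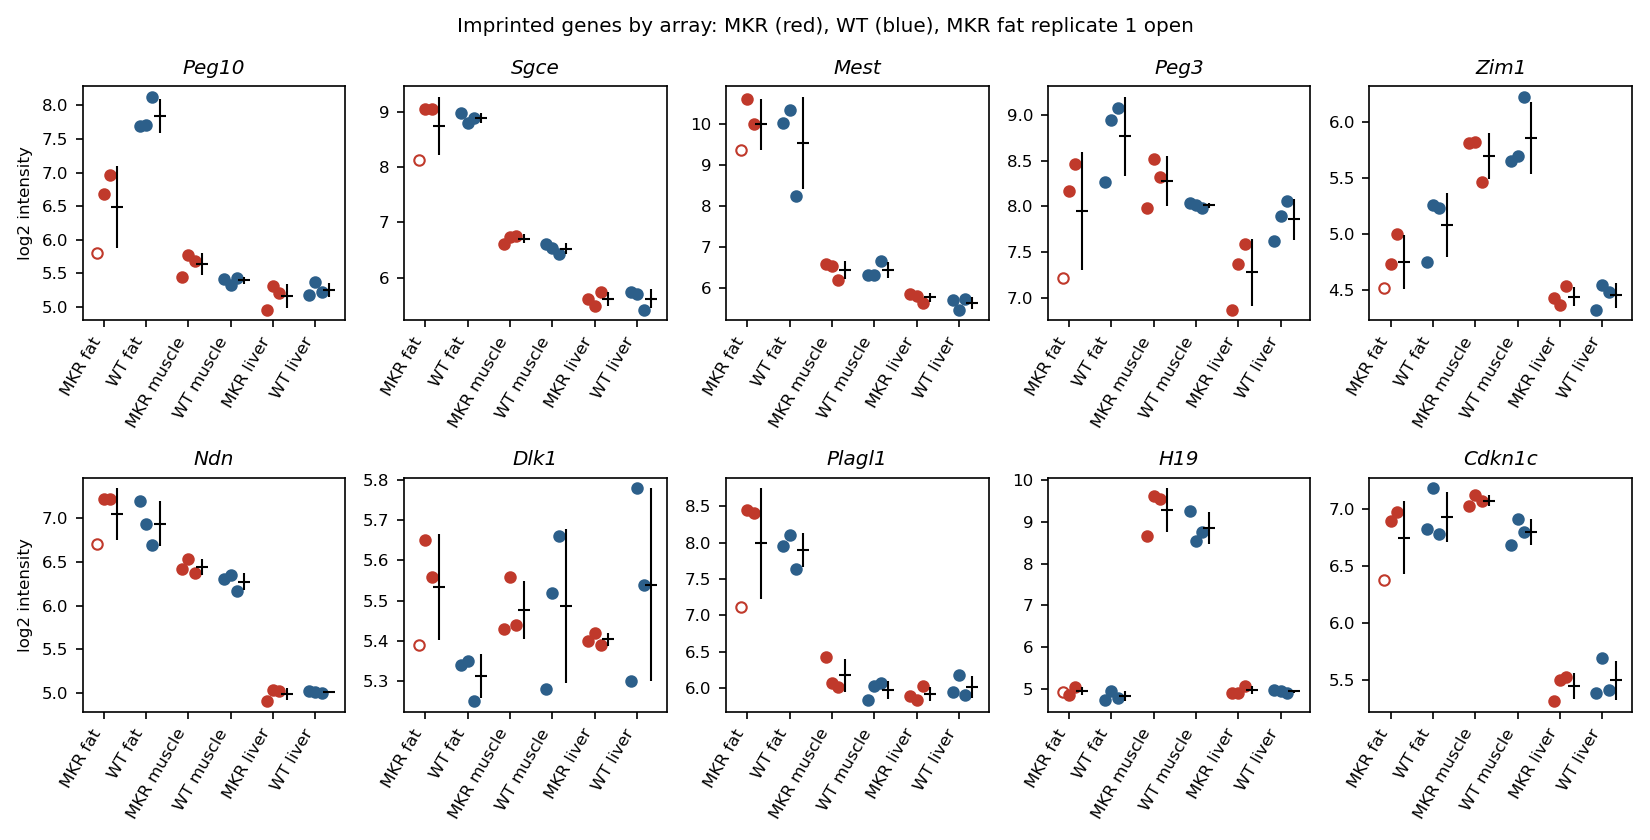
Log2 intensity of the 10 imprinted genes (vertical axis, scaled for each gene) in each of 18 arrays, by tissue and genotype. Points are mice, the open point is MKR fat replicate 1, and black bars are the mean and SD of 3 mice. Peg10, Sgce, Mest, Plagl1 and Ndn are highest in fat, H19 stands between 8.53 and 9.60 in the 6 muscle arrays and between 4.75 and 5.09 in the other 12, and Dlk1 stays between 5.25 and 5.78 in all 18.

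Mest encodes a protein of the alpha/beta hydrolase family that is tied to adipocyte enlargement in mice. It was 10.02, 10.34 and 8.25 in WT fat, 6.31, 6.32 and 6.65 in WT muscle, and 5.71, 5.47 and 5.74 in WT liver. WT fat was thus above both other tissues in every mouse, while WT fat replicate 3 was low beside the other fat arrays, and the SD of WT fat was 1.13. The difference was 3.90 ± 0.39 (SE) for fat minus liver (adjusted p = 5.5e-07 from limma) and 3.11 ± 0.39 for fat minus muscle (adjusted p = 8.0e-06). The difference between WT muscle and WT liver was 0.79 ± 0.39, with all 3 muscle arrays above all 3 liver arrays, and it missed the threshold (adjusted p = 0.128). It passed when limma was fitted to these 2 tissues alone (adjusted p = 6.3e-04) or without WT fat replicate 3 (adjusted p = 0.0114). Of the 13 Mest probe sets 12 were higher in WT fat than in WT muscle, and the largest difference of a single probe set between WT fat and WT liver was 6.08.

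Mest and H19 both host a microRNA, and the mature sequences are shown because a host transcript is what the arrays measured here and its level differed widely between tissues. The sequences are from RefSeq (GRCm38.p6), with the seed, bases 2 to 8, in capitals. The miR-335 sequences lie within Mest on the plus strand of chromosome 6, and the miR-675 sequences within H19 on the minus strand of chromosome 7.
mmu-miR-335-5p, chr6:30741314-30741336: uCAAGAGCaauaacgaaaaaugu
mmu-miR-335-3p, chr6:30741354-30741375: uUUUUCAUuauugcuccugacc
mmu-miR-675-5p, chr7:142577112-142577133: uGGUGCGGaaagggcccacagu
mmu-miR-675-3p, chr7:142577078-142577099: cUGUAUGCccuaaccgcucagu
No 2 of these 4 seeds are alike. The microRNAs themselves were not analysed here.

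Peg10 and Sgce are neighbours that are read in opposite directions from a shared imprinted region on chromosome 6. Peg10 derives from a retrotransposon and is needed for the placenta, and Sgce encodes epsilon-sarcoglycan, a membrane protein linked to the dystrophin complex. Peg10 was 7.69, 7.71 and 8.13 in WT fat, 5.42, 5.33 and 5.43 in WT muscle, and 5.17, 5.37 and 5.22 in WT liver. Fat was 2.59 ± 0.22 (SE) above liver (adjusted p = 5.7e-08, limma) and 2.45 ± 0.22 above muscle (adjusted p = 1.4e-07). The WT fat values were part of the comparison that helped to choose Peg10, so these p-values are not free of that choice. Muscle and liver overlapped, with a difference of 0.14 (95% interval -0.31 to 0.60). Both Peg10 probe sets were more than 1 higher in fat than in either other tissue.

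Sgce was 8.98, 8.79 and 8.89 in WT fat, 6.61, 6.54 and 6.42 in WT muscle, and 5.74, 5.70 and 5.42 in WT liver. These groups did not overlap, and each step in the order fat, muscle, liver passed the test. Fat was 3.27 ± 0.18 (SE) above liver (adjusted p = 3.7e-10, limma), fat was 2.36 ± 0.18 above muscle (adjusted p = 3.0e-08), and muscle was 0.90 ± 0.18 above liver (adjusted p = 7.2e-04). In all 15 Sgce probe sets WT fat was above both WT liver and WT muscle.

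Plagl1, a zinc finger transcription factor that acts on cell cycle arrest and on other imprinted genes, was 7.95, 8.10 and 7.64 in WT fat, 5.83, 6.02 and 6.07 in WT muscle, and 5.94, 6.18 and 5.90 in WT liver. Fat stood 1.89 ± 0.26 (SE) above liver (adjusted p = 1.7e-05, limma) and 1.92 ± 0.26 above muscle (adjusted p = 1.5e-05). Liver and muscle overlapped, with a difference of -0.03 for muscle minus liver (95% interval -0.58 to 0.51). All 15 probe sets of Plagl1 were higher in fat than in liver and in muscle.

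Mest and Plagl1 varied together, with a Pearson r of 0.97 over the 17 arrays without MKR fat replicate 1, the highest value among all pairs of the 10 genes. These arrays share 6 mice and 3 tissues, and r was taken across tissues. Their RefSeq promoter windows (GRCm38.p6, 250 bases before to 50 after the start) are shown for that reason. Capitals mark TGCCGC on either strand, the motif of ZFP57, a protein that keeps methylation at imprinted regions.
Mest, chr6:30737800-30738099, plus strand: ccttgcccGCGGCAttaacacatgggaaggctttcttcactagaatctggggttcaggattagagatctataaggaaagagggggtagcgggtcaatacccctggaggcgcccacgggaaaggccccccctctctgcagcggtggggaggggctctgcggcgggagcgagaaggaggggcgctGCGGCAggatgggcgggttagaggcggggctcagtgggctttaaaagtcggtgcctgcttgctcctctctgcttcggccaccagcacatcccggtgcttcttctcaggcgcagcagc
Plagl1, chr10:13090582-13090881, plus strand: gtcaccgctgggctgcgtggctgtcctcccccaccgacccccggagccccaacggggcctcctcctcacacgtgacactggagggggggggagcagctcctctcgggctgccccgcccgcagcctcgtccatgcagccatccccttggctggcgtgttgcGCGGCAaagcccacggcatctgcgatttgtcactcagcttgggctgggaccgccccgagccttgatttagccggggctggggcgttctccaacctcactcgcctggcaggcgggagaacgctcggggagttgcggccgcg
The Mest window holds 2 matches and 17 CG dinucleotides, and the Plagl1 window holds 1 match and 26 CG dinucleotides. Of the 6 members with a window in RefSeq's table, Mest, Plagl1 and Zim1 (1 match) held the motif. It was absent from Peg3, Ndn, Dlk1 and another, upstream Mest window. Of all 32851 windows 11.6% hold it, but that share counts windows and not genes. The motif itself holds a CG, and windows of like CG content were not compared. Whether the motif is enriched in these genes was not tested. AANATGGC, the motif of YY1, was in none of the 8 windows of these genes, against 6.1% of all windows. The median window of all genes holds 7 CG dinucleotides, and the windows of these genes held 8 to 26.

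Ndn encodes necdin, a MAGE family protein that restrains growth in neurons and in preadipocytes, and it was measured by 1 probe set. It was 7.20, 6.93 and 6.69 in WT fat, 6.31, 6.35 and 6.17 in WT muscle, and 5.03, 5.01 and 5.0 in WT liver. The order fat, muscle, liver held in every array. Fat was 1.93 ± 0.14 (SE) above liver (adjusted p = 8.6e-09, limma) and 0.66 ± 0.14 above muscle (adjusted p = 0.00112), and muscle was 1.26 ± 0.14 above liver (adjusted p = 1.0e-06).

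Cdkn1c, the cyclin-dependent kinase inhibitor p57, was 6.82, 7.18 and 6.78 in WT fat, 6.68, 6.91 and 6.80 in WT muscle, and 5.39, 5.70 and 5.42 in WT liver. Fat and muscle overlapped, and both were above liver, by 1.42 ± 0.15 (SE) in fat (adjusted p = 7.7e-07, limma) and by 1.29 ± 0.15 in muscle (adjusted p = 1.6e-06). The difference between fat and muscle was 0.13 (95% interval -0.18 to 0.45). The probe sets of the gene differed, and 3 of 6 were more than 1 above WT liver in WT fat, whereas 1 lay between 8.79 and 10.05 in all 18 arrays, livers included, and 1 lay between 3.54 and 4.14 in all 18.

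Peg3 and Zim1 are neighbouring zinc finger genes on chromosome 7 that are transcribed from opposite parental alleles, and Peg3 affects growth, fat storage and maternal behaviour in mice. Peg3 was 8.27, 8.95 and 9.08 in WT fat, 8.04, 8.01 and 7.98 in WT muscle, and 7.62, 7.89 and 8.06 in WT liver. Fat was 0.91 ± 0.28 (SE) above liver (adjusted p = 0.0168, limma) and 0.76 ± 0.28 above muscle (adjusted p = 0.0424). These are the weakest tissue calls of the list. The first was lost without WT fat replicate 2 (adjusted p = 0.0653), without WT fat replicate 3 (adjusted p = 0.0751) or without WT liver replicate 1 (adjusted p = 0.0695), and the second was lost in 4 of 10 other analyses and with each of 8 arrays left out in turn, at adjusted p up to 0.158. Muscle and liver overlapped.

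The order of the tissues was another in Zim1. Zim1 was 4.75, 5.26 and 5.23 in WT fat, 5.65, 5.70 and 6.23 in WT muscle, and 4.32, 4.54 and 4.48 in WT liver, so that the order was muscle, fat, liver with no overlap. Muscle was 1.41 ± 0.17 (SE) above liver (adjusted p = 3.9e-06, limma), fat was 0.63 ± 0.17 above liver (adjusted p = 0.00877), and fat was 0.78 below muscle (difference -0.78 ± 0.17, adjusted p = 0.00182). The muscle values were higher than the fat values in all 5 of its probe sets. WT fat was above WT liver in 4 of the 5, and by more than 1 in 1 of them. Whether Zim1 was above background in fat and liver is not known, since detection calls were not analysed.

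H19, a long non-coding RNA that is abundant in fetal muscle and is kept in adult skeletal muscle, was high in muscle alone. It was 4.75, 4.97 and 4.79 in WT fat, 9.26, 8.53 and 8.75 in WT muscle, and 4.98, 4.97 and 4.92 in WT liver. Fat was -4.01 ± 0.21 (SE) relative to muscle (adjusted p = 1.5e-10, limma), and muscle was 3.89 ± 0.21 above liver (adjusted p = 8.1e-11). Fat and liver overlapped, with a difference of -0.12 (95% interval -0.56 to 0.32). All 7 probe sets were higher in muscle than in liver, by 0.68 to 6.42. In MKR mice too the muscle arrays, at 8.66, 9.60 and 9.55, were above the fat and liver arrays, which were at 4.86 to 5.09.

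Dlk1 encodes a transmembrane protein known as preadipocyte factor, which is shed and holds preadipocytes back from differentiating. It was 5.34, 5.35 and 5.25 in WT fat, 5.28, 5.52 and 5.66 in WT muscle, and 5.30, 5.78 and 5.54 in WT liver. All 18 arrays lay between 5.25 and 5.78, and none of the 3 differences between WT tissues passed the test (adjusted p = 0.165 for fat minus liver, 0.289 for fat minus muscle and 0.776 for muscle minus liver, limma). The intervals of these differences reached at most 0.48 in size. Detection calls were not analysed here, so whether the gene was above background is not known. Fat minus liver was -0.23, and passed the test without WT liver replicate 1 (adjusted p = 0.0397) and when arrays were centred on their medians (adjusted p = 0.0481).

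**Figure D2:**
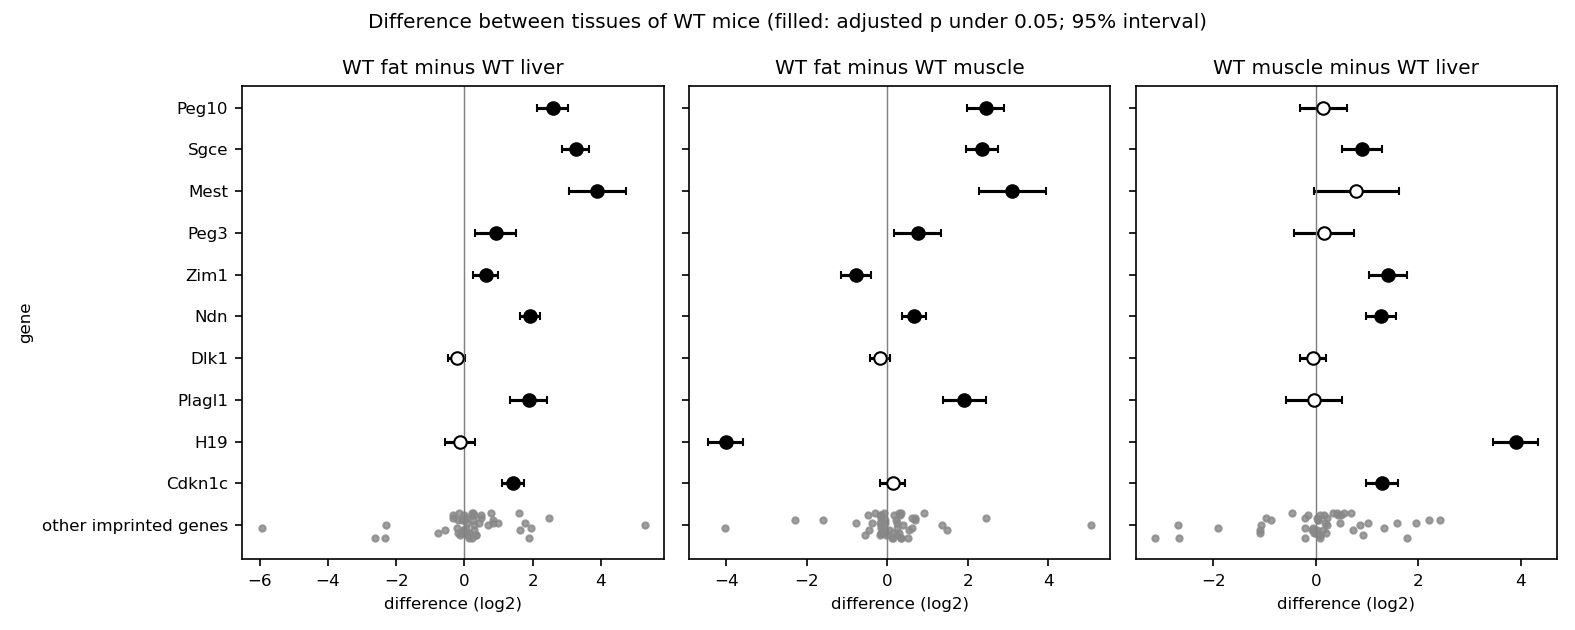
Differences between tissues of WT mice in log2 intensity (horizontal axis) for the 10 genes, with 95% intervals from limma, filled where the adjusted p is under 0.05. Grey points are the 51 other imprinted genes, without intervals. H19 is 3.89 higher in muscle than in liver and Mest 3.90 higher in fat than in liver, while Dlk1 lies within 0.23 of 0 in all 3 panels.

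The other imprinted genes are 58 genes of the same and other domains, of which 51 were measured. In WT fat against WT liver, 18 of the 51 were higher and 7 lower at the same threshold (19% and 16.5% of all genes). In WT fat against WT muscle, 13 were higher and 7 lower (19.5% and 18.3% of all genes). In WT muscle against WT liver, 15 were higher and 10 lower (21.5% and 18.9% of all genes). The median differences of the 51 genes were 0.14, 0.12 and 0.08. Nnat, which encodes neuronatin, a small membrane protein of brain and fat, was 5.28 ± 0.40 (SE) higher in fat than in liver and 5.08 ± 0.40 higher in fat than in muscle. Slc38a4, an amino acid transporter, was -5.94 ± 0.50 in fat relative to liver and -4.04 ± 0.50 relative to muscle. Slc22a3, a cation transporter, was 2.48 ± 0.27 higher in fat than in liver and 2.46 ± 0.27 higher in fat than in muscle.

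Of the 4 genes with the largest differences between muscle and liver, 3 were lower in muscle. Tfpi2, a protease inhibitor of the Peg10 domain, was -3.14 ± 0.16 in muscle relative to liver, and -2.62 ± 0.16 in fat relative to liver. Slc22a18, a transporter of the Cdkn1c domain, was -2.68 ± 0.12, and Ddc, which makes dopamine and serotonin from their precursors, was -2.68 ± 0.25. Tnfrsf23, a decoy receptor of the same domain as Cdkn1c, was 2.43 ± 0.20 higher in muscle. Asb4, in the domain of Peg10 and Sgce, was -2.28 ± 0.13 in fat relative to muscle, so genes of 1 domain ran in different directions. All differences named for these genes had an adjusted p of 6.1e-06 or lower in limma.

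The genes with the pattern most like a member were taken as the 5 with the highest Pearson r over the 17 arrays without MKR fat replicate 1, as a description. For Mest they were Htra3 (0.99), Hspa12a (0.984), Nnat (0.98), Tuba1b (0.978) and Npr3 (0.978). For Peg10 they were Mgst2 (0.986), Col6a5 (0.985), Slc36a2 (0.978), St6galnac5 (0.971) and Adcy5 (0.967), none of them in the list of imprinted genes. For Dlk1, whose values span only 5.25 to 5.78, the highest values were lower, from 0.859 for Bend6 through 0.825 for Slc30a8, 0.816 for Dnah8 and 0.815 for 9930038B18Rik to 0.806 for Tmem28. The arrays share mice, tissues and normalization.

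The second question is whether these genes differ between MKR and WT mice. In fat the values of Peg10 helped to choose the list, so they are a description with no test. Peg10 was 5.80, 6.68 and 6.97 in MKR fat and 7.69, 7.71 and 8.13 in WT fat. Every MKR array was below every WT array, and MKR replicate 1, the array with epididymis transcripts, was the lowest. The means were 6.48 ± 0.61 in MKR fat and 7.84 ± 0.25 in WT fat (SD, n = 3 each), a difference of -1.36, which became -1.02 without MKR replicate 1. Both probe sets were lower in MKR fat, with differences of -1.41 and -1.32, or -0.995 and -1.05 without that array. In bulk tissue fewer cells of a type and less RNA per cell cannot be told apart.

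Dlk1 was the other gene whose groups did not overlap in fat, with 5.39, 5.65 and 5.56 in MKR fat and 5.34, 5.35 and 5.25 in WT fat, a difference of 0.22, or 0.29 without MKR replicate 1. So 2 of the 10 genes did not overlap, 1 in each direction, where 11.7% of all genes did not. Without MKR fat replicate 1, 5 of the 10 did not overlap, where 28% of all genes did not. Peg10 then stayed below, and Sgce, Ndn, Dlk1 and Plagl1 were above WT fat. Both shares were larger with 2 arrays against 3.

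Peg3 was 7.22, 8.17 and 8.46 in MKR fat and 8.27, 8.95 and 9.08 in WT fat. The groups overlapped through MKR replicate 3 and WT replicate 1, and the difference was -0.82, or -0.45 without MKR replicate 1. In fat 16 of the 17 Peg3 probe sets were lower in MKR mice, and 15 without MKR replicate 1. Zim1, its neighbour, was 4.51, 4.73 and 5.0 in MKR fat and 4.75, 5.26 and 5.23 in WT fat, with a difference of -0.33 that became -0.21.

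Mest was 9.36, 10.60 and 10.00 in MKR fat and 10.02, 10.34 and 8.25 in WT fat. The difference was 0.45, or 0.76 without MKR replicate 1, but the groups overlapped and it was -0.19 without WT replicate 3, so its direction rested on that array. Nnat was also low in WT fat replicate 3, with 9.58, 11.13 and 11.36 in MKR fat and 10.92, 11.15 and 9.73 in WT fat. All 13 Mest probe sets were higher on average in MKR fat, with or without MKR replicate 1.

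Plagl1 was 7.11, 8.45 and 8.41 in MKR fat and 7.95, 8.10 and 7.64 in WT fat. Sgce was 8.13, 9.05 and 9.05 in MKR fat and 8.98, 8.79 and 8.89 in WT fat. In both, MKR replicate 1 was the lowest of the 6 arrays and the other 2 MKR arrays were above all WT arrays. The difference was 0.09 for Plagl1, or 0.53 without that array, and -0.14 for Sgce, or 0.16 without it. MKR fat replicate 1 was the lowest of the 6 fat arrays for 6 of the 10 genes, where it was the lowest for 33.5% of all genes. The part of its epididymis RNA in these values was not tested.

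Ndn was 6.71, 7.22 and 7.22 in MKR fat and 7.20, 6.93 and 6.69 in WT fat, a difference of 0.11, or 0.28 without MKR replicate 1. Cdkn1c was 6.38, 6.89 and 6.97 in MKR fat and 6.82, 7.18 and 6.78 in WT fat, a difference of -0.18 that was 0.00 without that array. Of its 6 probe sets 5 were lower and 1 higher in MKR fat, from -0.92 to 0.60, and 3 were lower and 3 higher without that array. H19 was 4.94, 4.86 and 5.05 in MKR fat and 4.75, 4.97 and 4.79 in WT fat, a difference of 0.11, or 0.12 without MKR replicate 1. In these 3 genes the groups overlapped with all arrays in.

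The means of cell type markers in fat are given beside these values. Those of 12 fibroblast and preadipocyte markers, which include the imprinted gene Dcn, were 7.97, 8.36 and 8.03 in MKR fat and 7.90, 8.03 and 7.83 in WT fat. Those of 8 adipocyte markers were 9.36, 10.70 and 10.79 in MKR fat and 10.69, 10.56 and 10.57 in WT fat. Those of 8 macrophage markers were 7.03, 8.07 and 8.05 in MKR fat and 7.69, 7.70 and 8.03 in WT fat, and those of 8 mesothelium markers were 6.34, 6.85 and 6.21 in MKR fat and 5.94, 5.85 and 5.81 in WT fat. Of these 4 means, that of mesothelium alone was higher in every MKR array than in every WT array. Of its 8 genes 2 were so and 0 were lower, where 11.7% of all genes did not overlap in fat. In MKR fat replicate 1, 5 of the 8 were at their lowest of the 6 fat arrays and 3 at their highest. The mean of 8 muscle fibre markers was apart too, at 5.43, 5.29 and 5.36 in MKR fat and 5.09, 5.17 and 5.24 in WT fat. Of those 8 genes 3 were higher in every MKR array and 0 lower. The part of these cells in the fat values was not tested.

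**Figure D3:**
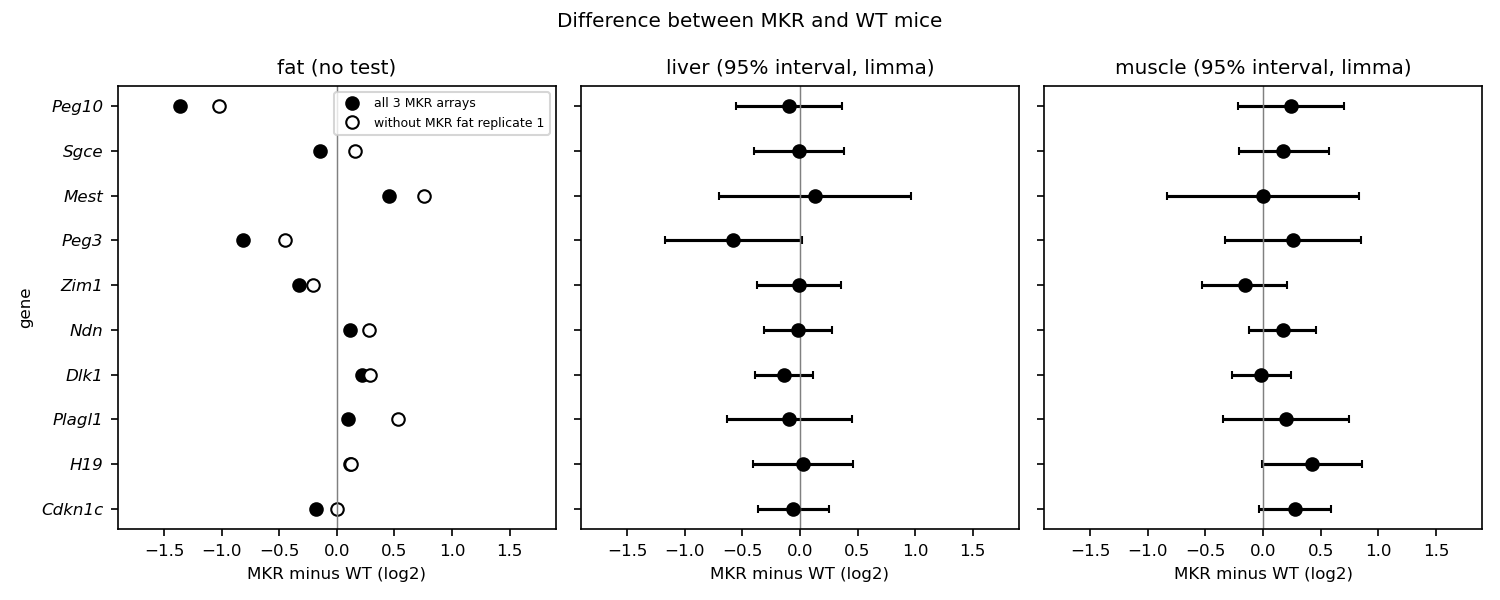
MKR minus WT in log2 intensity (horizontal axis) for the 10 genes in fat, liver and muscle. In fat, filled points use all 3 MKR arrays and open points leave out MKR fat replicate 1, with no intervals, and in liver and muscle the bars are 95% intervals from limma. Peg10 in fat lies at -1.36 and -1.02, and every interval in liver and muscle includes 0.

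In liver 0 of the 10 genes changed at an adjusted p under 0.05 from limma, and 0 had an unadjusted p under 0.05, where 0.0344% of all genes were called and 5% had an unadjusted p under 0.05. The differences ran from -0.58 to 0.13 with a median of -0.04, against 0.00 over all genes. Of the 10 differences 8 were negative, where 48.6% of those of all genes were positive. The 95% intervals lay within 0.70 of 0 for all genes but Mest (-0.70 to 0.96) and Peg3 (-1.17 to 0.01). The interval of Mest takes in its spread in fat, where the SD was 1.13 in WT mice, against 0.15 in WT liver.

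Of the genes highest in fat, none was called between MKR and WT liver. Mest was 5.86, 5.81 and 5.64 in MKR liver and 5.71, 5.47 and 5.74 in WT liver, a difference of 0.13. Sgce was 5.62, 5.48 and 5.73 in MKR liver and 5.74, 5.70 and 5.42 in WT liver, a difference of -0.01. Plagl1 was 5.89, 5.83 and 6.02 in MKR liver and 5.94, 6.18 and 5.90 in WT liver, a difference of -0.09. In all 3 the groups overlapped, as they did for Cdkn1c, which was 5.32, 5.50 and 5.53 in MKR liver and 5.39, 5.70 and 5.42 in WT liver. Dlk1 had its highest value of all arrays in WT liver replicate 2, with 5.40, 5.42 and 5.39 in MKR liver and 5.30, 5.78 and 5.54 in WT liver, a difference of -0.14. The differences of Zim1, Ndn and H19 in liver were -0.01, -0.02 and 0.02.

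Peg3 had the lowest p of the list in liver. It was 6.87, 7.37 and 7.59 in MKR liver and 7.62, 7.89 and 8.06 in WT liver, so that every MKR array was below every WT array, the closest by 0.03. The difference was -0.58 ± 0.28 (SE), with an unadjusted p of 0.0549 and an adjusted p of 0.998 from limma. It was the only 1 of the 10 genes without overlap in liver, where 9.43% of all genes did not overlap. Of its 17 probe sets 15 were lower in MKR liver, with a median of -0.46 and a range from -1.97 to 0.14, and 0 of them passed the test over 212138 probe sets. MKR replicate 1 was the lowest of the 6 liver arrays for Peg3, as it was for Peg10 (4.96, 5.31 and 5.20 in MKR liver, 5.17, 5.37 and 5.22 in WT liver).

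**Figure D4:**
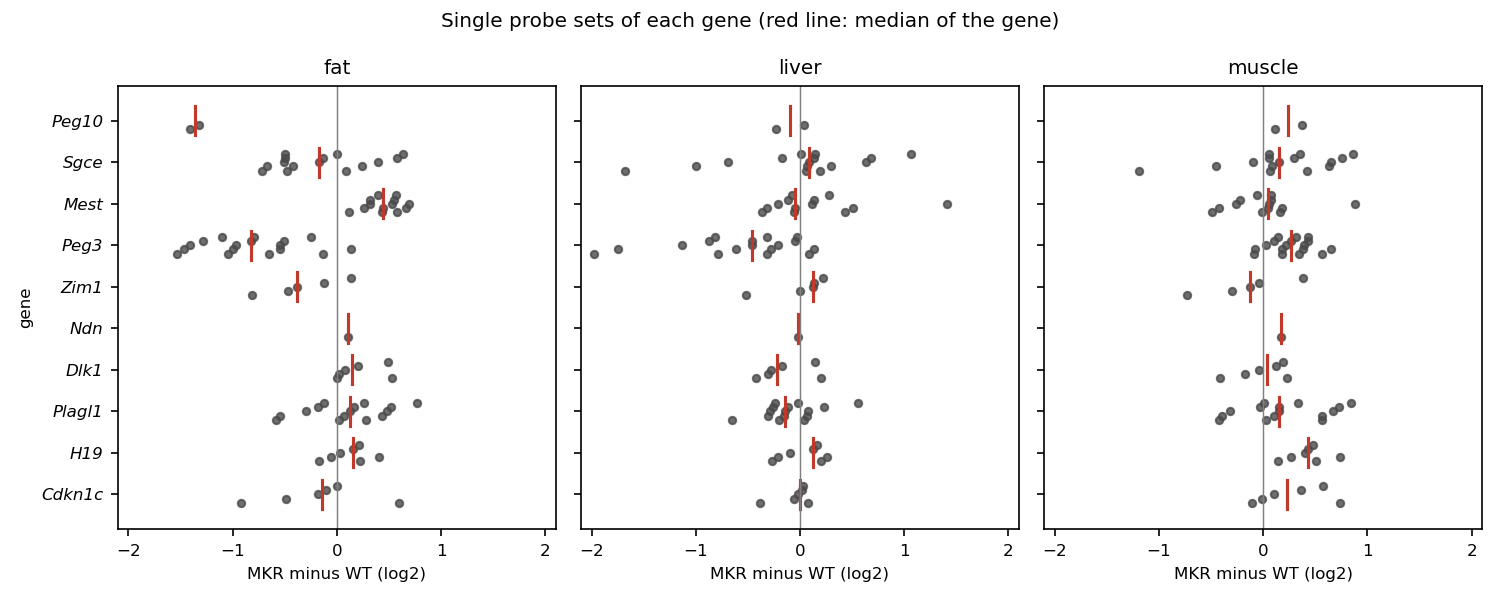
MKR minus WT in log2 intensity (horizontal axis) for every single probe set of the 10 genes in fat, liver and muscle, with the median of each gene as a red line. The 17 Peg3 probe sets lie mostly below 0 in fat (16 lower, or 15 without MKR fat replicate 1) and in liver (15 lower) and mostly above 0 in muscle (15 higher), and the 7 H19 probe sets are all above 0 in muscle.

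In muscle, the tissue of the transgene, 0 of the 10 genes changed at an adjusted p under 0.05 and 0 at an unadjusted p under 0.05 from limma, where 0.201% of all genes were called and 10.53% had an unadjusted p under 0.05. The differences ran from -0.16 to 0.42 with a median of 0.19, against 0.00 over all genes. Of the 10 differences 8 were positive, as were 51% of those of all genes. Groups did not overlap for Peg10, Ndn and Cdkn1c, all higher in MKR muscle, which is 3 of 10 where 21.9% of all genes did not overlap.

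H19 was 8.66, 9.60 and 9.55 in MKR muscle and 9.26, 8.53 and 8.75 in WT muscle. MKR replicates 2 and 3 were above all WT arrays, while MKR replicate 1 lay among them. The difference was 0.42 ± 0.21 (SE), with an adjusted p of 0.487 and a 95% interval of -0.01 to 0.86 from limma. This SE takes in the small spread of H19 in fat and liver, where the SD of a group was 0.03 to 0.12. In muscle the SD was 0.53 in MKR mice and 0.38 in WT mice. The SE and the interval thus understate the uncertainty in muscle. All 7 probe sets were higher in MKR muscle, by 0.15 to 0.74. Without MKR replicate 1 the difference was 0.73, still short of the threshold (adjusted p = 0.134).

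Cdkn1c was 7.02, 7.12 and 7.07 in MKR muscle and 6.68, 6.91 and 6.80 in WT muscle, a difference of 0.28 ± 0.15 (SE, adjusted p = 0.539, limma). Of its 6 probe sets 4 were higher and 2 lower in MKR muscle, with differences from -0.11 to 0.74. Peg10 was 5.45, 5.77 and 5.68 in MKR muscle and 5.42, 5.33 and 5.43 in WT muscle, a difference of 0.24 ± 0.22 (adjusted p = 0.763). Ndn was 6.42, 6.54 and 6.37 in MKR muscle and 6.31, 6.35 and 6.17 in WT muscle, a difference of 0.17 ± 0.14 (adjusted p = 0.733). In these 3 genes the groups were apart by 0.11 or less. The mean of 8 satellite cell and myoblast markers was 6.36, 6.39 and 6.40 in MKR muscle and 6.08, 6.31 and 6.16 in WT muscle. Its groups did not overlap either. Of its 8 genes 2 were higher in every MKR array than in every WT array and 0 lower. Over all genes 21.9% did not overlap in muscle. The means of 2 other lists were lower in MKR muscle without overlap. That of 8 macrophage markers was 6.01, 5.81 and 5.79 in MKR muscle and 6.09, 6.35 and 6.56 in WT muscle. Of those 8 genes 5 were lower in every MKR array and 0 higher. That of 8 muscle fibre markers was 11.71, 11.78 and 11.78 in MKR muscle and 11.92, 11.86 and 11.95 in WT muscle. Of those 8 genes 3 were lower in every MKR array and 0 higher. The part of these cells in the muscle values was not tested.

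Peg3 was 7.98, 8.52 and 8.32 in MKR muscle and 8.04, 8.01 and 7.98 in WT muscle, a difference of 0.26 ± 0.28 (SE, adjusted p = 0.816, limma), with 15 of 17 probe sets higher. Zim1 was 5.81, 5.82 and 5.46 in MKR muscle and 5.65, 5.70 and 6.23 in WT muscle, a difference of -0.16 ± 0.17 (adjusted p = 0.818). Its groups overlapped and its direction rested on WT replicate 3, without which the difference was 0.02.

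The 4 remaining genes overlapped between the groups in muscle. Sgce was 6.61, 6.73 and 6.76 in MKR muscle and 6.61, 6.54 and 6.42 in WT muscle, a difference of 0.18. Plagl1 was 6.43, 6.07 and 6.01 in MKR muscle and 5.83, 6.02 and 6.07 in WT muscle, a difference of 0.20. Mest, at 6.58, 6.54 and 6.18 in MKR muscle and 6.31, 6.32 and 6.65 in WT muscle, differed by 0.00 (95% interval -0.83 to 0.83), the widest interval of the list in muscle. Dlk1 was 5.43, 5.56 and 5.44 in MKR muscle and 5.28, 5.52 and 5.66 in WT muscle, a difference of -0.01.

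The MKR effect in muscle minus that in liver was tested for each gene, and 0 of the 10 passed (0.0737% of all genes were called). Peg3 had the only unadjusted p under 0.05, with a difference of 0.84 ± 0.39 (SE, unadjusted p = 0.0492, adjusted p = 0.483, limma), and its MKR arrays were higher in muscle and lower in liver on average. Of all genes 10.32% had an unadjusted p under 0.05 in this comparison, so 1 of 10 is near the background. The median of the 10 genes was 0.24, against 0.01 over all genes. Both tissues come from the same mice.

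Of limma's tests between genotypes, 0 of the 51 other imprinted genes passed in liver and 0 in muscle, with 1 and 6 at an unadjusted p under 0.05, where 5% of all genes in liver and 10.53% in muscle were under it. Their median differences were -0.01 and 0.06. Igf2, the growth factor gene beside H19, was named after its values were seen. It was 6.91, 6.98 and 7.03 in MKR muscle and 6.32, 6.23 and 6.27 in WT muscle, with a gap of 0.59 between the groups. The difference was 0.70 ± 0.16 (SE, adjusted p = 0.106, limma). It passed the threshold in 2 of the 10 other analyses, with limma fitted to muscle alone (adjusted p = 0.0187) and with array weights (adjusted p = 0.0113). With each array left out in turn, it passed only without MKR fat replicate 1 (adjusted p = 0.0305). In the remaining fits it stayed short of the threshold. In liver Igf2 differed by -0.07 and in fat by -0.12, or by 0.06 without MKR fat replicate 1, and its groups overlapped in both.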

How the data were processed

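Total RNA of fat, liver and skeletal muscle was hybridised to Affymetrix Mouse Gene 1.0 ST arrays. The authors normalized the arrays with RMA and deposited log2 values from Partek 6.3. These run from 1.52 to 3.82 over 241419 probe sets, the range of values transformed to log2 a second time, so the log2 intensity was taken as 2 raised to each deposited value (2.87 to 14.15). This step was inferred and not stated. Of the probe sets, 212138 had 1 gene symbol, 4672 several and 24609 none, and only the first were used. Symbols were updated by the RefSeq names of GRCm38.p6 (17626 current, 2743 matched by a synonym, 53 kept). Probe sets were averaged per gene, with a median of 8 to a gene.

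limma 3.58.1 in R 4.3.3 was fitted to all 18 arrays with 6 group means and empirical Bayes, with Benjamini-Hochberg adjustment over 20358 genes and a threshold of 0.05. The spread of a gene was thus estimated over all 3 tissues together, so its SE was the same in each tissue. An exact test of 3 mice against 3 cannot go below p = 0.1. The fit was tested on simulated data. The genes, lists and tests were chosen with earlier results of these data known. Named genes were all 10 members, other imprinted genes past the threshold between genotypes, up to 4 with the largest difference between tissues, and the 5 most like Peg10, Dlk1 and Mest. A fit on single probe sets was added after seeing the data. Replicate numbers name different mice in MKR and WT, and the same mouse across tissues. Between MKR and WT the deviations of same-numbered arrays correlated at -0.31 to 0.29, and between tissues of a mouse, which the labels pair, at -0.12 to 0.20. Figures were drawn with matplotlib 3.10.9 in Python 3.11.15. Raw intensities and detection calls were not analysed here.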

Additional observations from a re-analysis of the deposited data

Results flagged for a closer look

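In Peg10 every MKR array lay on opposite sides of the WT arrays in fat and in muscle. All 3 MKR arrays were below all 3 WT arrays in fat, by a gap of 0.72 between the groups, and all 3 were above all 3 WT arrays in muscle, by a gap of 0.02. In muscle the difference was 0.24 ± 0.22 (SE) and did not pass the test (adjusted p = 0.763, limma), with a 95% interval of -0.22 to 0.70. Peg10 lay between 5.33 and 5.77 in the muscle arrays. Whether it was above background there is not known, since detection calls were not analysed. The MKR effect in fat minus that in muscle was -1.6 on the log2 scale. This difference was not tested, since the fat values helped to choose the gene. Without MKR fat replicate 1 the effect in fat was -1.02, against 0.24 in muscle.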

How the results depend on the processing

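The precision is limited by 3 arrays per group and by the lack of detection calls. The count of 0 genes changed between MKR and WT mice in liver, in muscle and in the difference between them held in each of the 10 other analyses and with each array left out in turn. The tissue counts held within 1.5 times, at 7 to 8 for fat minus liver and for fat minus muscle and 5 to 6 for muscle minus liver with arrays left out. With the mouse as replicate block, among the WT arrays of the 2 tissues alone, they were 8, 8 and 6, since Mest then passed for muscle minus liver (adjusted p = 5.0e-04, limma). With the replicate number as a block between MKR and WT, where the numbers pair no mice, the counts stayed 0 and Peg3 in liver had an adjusted p of 0.624.

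Counts of genes without overlap moved more. In fat the count of 2 was 1 with the median of probe sets and 1 with quantile normalization within the tissue, and 2 to 5 with arrays left out, namely 5 without MKR fat replicate 1, and 4 without either MKR fat replicate 3 or WT fat replicate 1. In liver the count of 1 was 0 with the median of probe sets and 0 with quantile normalization, and 1 to 3 with arrays left out, with 3 without MKR liver replicate 3 and 2 without WT liver replicate 1. In muscle the count of 3 was 3 to 6 with arrays left out, with 6 without MKR muscle replicate 1. The count of other imprinted genes changed in muscle was 1 in muscle arrays alone, 2 with array weights (Igf2 and Pon3) and 0 to 1 with arrays left out. The cause was not tested.

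The following differences in liver and muscle, between WT tissues and between the MKR effects changed sign under at least 1 alternative. Zim1 in liver was 0.07 with the median of probe sets and 0.01 with deposited values, with quantile normalization and with centred arrays. Sgce in liver was 0.01 with centred arrays, Dlk1 for muscle minus liver was 0.04 with the median of probe sets, Plagl1 for muscle minus liver was 0.01 with array weights, and Dlk1 for the difference of the MKR effects was -0.05 with the median of probe sets. With arrays left out, the ranges in liver were -0.11 to 0.06 for Sgce, -0.07 to 0.04 for Zim1, -0.04 to 0.02 for Ndn, -0.03 to 0.05 for H19 and -0.11 to 0.04 for Cdkn1c. In muscle they were -0.27 to 0.02 for Zim1 and -0.12 to 0.07 for Dlk1. For WT muscle minus WT liver they were -0.17 to 0.06 for Dlk1 and -0.09 to 0.05 for Plagl1, and for the difference of the MKR effects -0.26 to 0.03 for Zim1.

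In fat, where no test was made, Peg10 stayed between -1.61 and -1.02 and Peg3 between -1.07 and -0.45 with arrays left out, while Sgce (-0.30 to 0.16), Mest (-0.19 to 0.85), Ndn (-0.02 to 0.28) and Plagl1 (-0.14 to 0.53) took both signs. Mest in muscle (-0.07 to 0.13) did so too. Cdkn1c in fat was -0.55 with the median of probe sets, against -0.18.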
